A study of Mus musculus with 4 samples.

Results

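The genes described here encode 10 enzymes of mitochondrial fatty acid beta-oxidation, chosen by symbol: Acadvl, Acadl, Acadm, Acads, Hadha, Hadhb, Echs1, Hadh, Acaa2 and Decr1. All 10 were found among the 15500 genes of a liver RNA-seq table of mice, and none was lost to the filter on low values, a mean FPKM of at least 1, which 10355 genes passed. FPKM are sequenced fragments scaled to transcript length and to the depth of the library, so that levels can be set side by side between genes. The rule itself uses the symbols alone, though the genes were proposed with earlier results of these data known.

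The study asked how dietary conjugated linoleic acid (CLA) acts on the liver and what part the nuclear receptor PPARα has in it. Male mice of the outbred Kunming stock, bought at 5 weeks of age and acclimated for 1 week, were kept for 28 days in 4 groups of 6. Livers were taken at zeitgeber time 8, that is, 8 hours after lights on. The Vehicle group ate chow with 1.5% linoleic acid by weight, with injections of the solvent where these were called for, and the CLA group ate chow with CLA at the same 1.5%. The GW6471 group ate the linoleic acid chow and was given GW6471, a PPARα antagonist, by daily intraperitoneal injection at 20 mg/kg. The CLA+GW6471 group had the CLA chow and the injections of GW6471. All of the groups therefore ate an added polyunsaturated fatty acid, and the reference was linoleic acid rather than plain chow.

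One library was sequenced for each condition, and the sources used here do not state whether it holds the RNA of 1 mouse or of several. A condition with 1 library has no replicate check, and no test between conditions was made. The intervals below are 95% exact counting intervals, which cover counting error only and not the spread between animals. The depth was estimated from the table at 18768597 to 19262979 reads per library, and the members had between 424 and 4762 estimated reads each.

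The label of the tissue was checked against markers of hepatocytes. Of 17 such genes, 13 were listed, and 8 of these had a mean FPKM under 1, among them Cps1, Cyp2e1 and Ttr, which liver cells normally express strongly. Alb, the gene of serum albumin, was present at 679.53 FPKM in Vehicle and 1321.55 in CLA, against 1067.32 in GW6471 and 620.17 in CLA+GW6471. The summed FPKM of the hepatocyte markers was 968 in Vehicle and 1845 in CLA, against 1499 in GW6471 and 902 in CLA+GW6471. The most abundant gene of the table was Sprr1a, a protein of cornified epithelia, at 15810.18 to 26115.83 FPKM. Markers of squamous epithelium (5 of 5 listed, 4 with a mean under 1) summed to 2.90 to 4.50 FPKM. Markers of cholangiocytes, the cells of bile ducts (4 of 4 listed, 1 with a mean under 1), summed to 66.9 to 85.6. Those of macrophages (3 of 5 listed, 2 with a mean under 1) summed to 24.2 to 36.6. Those of stellate cells (5 of 5 listed, 4 with a mean under 1) summed to 1148 to 1506. Those of adipocytes, red blood cells and muscle reached at most 2.39. The values of the members are therefore values of these libraries, whose profile lacked several defining transcripts of liver. In bulk RNA, fewer cells of a type and less RNA per cell cannot be told apart.

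Mitochondrial beta-oxidation shortens an activated fatty acid by repeated rounds of dehydrogenation, hydration, a further dehydrogenation and thiolysis, each round releasing acetyl-CoA. In the liver it supplies energy and the acetyl-CoA for ketone bodies during fasting, and many of its genes are targets of PPARα. Within mitochondria, very long chains are first shortened by enzymes bound to the inner membrane, and shorter chains by soluble enzymes of the matrix.

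The sequences upstream of a few members are shown first, as background to the levels. They were taken from the mm9 assembly, and end at the 5′ end that the GENCODE vM1 annotation gives the gene, so that they hold no transcribed sequence of it. Hadh and Acads are shown as 2 of the 3 members that differed by at least 1.5-fold in more than 1 of the 4 comparisons described below, the other being Acaa2. The stretch between Hadha and Hadhb is shown because both subunits of 1 enzyme start from it. Capitals mark the letters GGGCGG or, on the other strand, CCGCCC, a GC box as known for factors of the Sp1 family. This motif was added after the sequences had been seen.
Hadh, chr3:130975020-130975269, minus strand: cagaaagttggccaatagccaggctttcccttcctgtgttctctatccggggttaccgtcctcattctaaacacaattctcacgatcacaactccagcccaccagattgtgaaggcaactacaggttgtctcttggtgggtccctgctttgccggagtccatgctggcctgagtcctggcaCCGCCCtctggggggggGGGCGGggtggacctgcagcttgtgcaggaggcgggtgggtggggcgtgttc
Acads, chr5:115569356-115569605, minus strand: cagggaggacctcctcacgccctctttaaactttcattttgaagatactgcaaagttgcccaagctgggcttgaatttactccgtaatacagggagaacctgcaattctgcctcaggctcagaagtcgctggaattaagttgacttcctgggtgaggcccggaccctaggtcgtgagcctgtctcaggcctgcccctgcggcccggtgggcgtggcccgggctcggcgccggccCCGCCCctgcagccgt
Hadha to Hadhb, chr5:30481703-30481787, plus strand: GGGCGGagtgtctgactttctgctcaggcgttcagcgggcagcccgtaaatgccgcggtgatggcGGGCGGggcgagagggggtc

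Hadha is read from the minus strand and Hadhb from the plus strand, and only the 85 bases above lay between their annotated 5′ ends. GC boxes began 52 and 69 bases upstream of Hadh, 16 bases upstream of Acads, and at bases 1 and 66 of the stretch between the trifunctional protein genes. In the RefSeq promoter table (GRCm38.p6), 8 of the 10 members had an entry, all but Acaa2 and Decr1, and a GC box stood in the 250 upstream bases of 6 of these 8, against 32.7% of all 32851 promoters. The windows of Hadha and Hadhb overlap, and the GC box of Hadha is also counted for Hadhb. The share of G and C was 49.6% to 68.0% in the 8 windows, with 7 of them above the median of 52.4% over all promoters.

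The motifs known for nuclear receptors stood in fewer of the 8 windows, and also in fewer of all promoters, than the GC box. The element AGGTCA, searched like the others on both strands, was found in the windows of Acadm, Acadvl and Echs1, and in 14.0% of all promoters. A direct repeat of it with 1 base between, AGGTCANAGGTCA, the form known for PPARα with its partner RXR, was found with up to 2 mismatches in the window of Echs1 alone, where it contains the AGGTCA element, and in 3.24% of all promoters. TCAAGGTCA, known for the estrogen-related receptors, and CACGTG, the E-box of clock factors, were in none of the 8 windows, and in 0.387% and 6.02% of all promoters. The match upstream of Echs1 is shown in capitals, a sequence that was chosen after the match had been seen. It began 28 bases upstream of the annotated 5′ end and carried 2 mismatches.
Echs1, chr7:147302376-147302570, minus strand: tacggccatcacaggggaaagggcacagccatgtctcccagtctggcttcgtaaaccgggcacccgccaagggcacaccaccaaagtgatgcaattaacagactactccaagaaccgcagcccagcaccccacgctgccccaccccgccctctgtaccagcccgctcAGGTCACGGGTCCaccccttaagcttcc
A match describes the letters of this window, and binding was not measured here.

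The acyl-CoA dehydrogenases make the first step of each round, and differ in the chain length they take. Acadvl (Entrez 11370, mm9 chr11:69823685-69828913), the very long-chain enzyme of the inner membrane, was measured at 19.93 FPKM in Vehicle and 25.11 in CLA, against 29.92 in GW6471 and 27.87 in CLA+GW6471. Acadl (11363, chr1:66877413-66909851), the long-chain enzyme, was measured at 63.29 FPKM in Vehicle and 81.75 in CLA, against 130.16 in GW6471 and 106.79 in CLA+GW6471. Both had their lowest level in Vehicle and their highest in GW6471. All neighbours in this order differed by more than counting error for Acadl, whereas for Acadvl the GW6471 and CLA+GW6471 libraries did not (log2 ratio of CLA+GW6471 to GW6471 −0.10, interval −0.22 to 0.01). Acadl was the most abundant member in every library, and held 23.5% of the summed FPKM of the members in Vehicle and 21.7% in CLA, against 32.4% in GW6471 and 33.7% in CLA+GW6471.

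The enzymes for shorter chains had another order. Acadm (11364, chr3:153585321-153607596), the medium-chain dehydrogenase whose deficiency is screened for in newborns, was measured at 29.96 FPKM in Vehicle and 38.26 in CLA, against 32.40 in GW6471 and 27.67 in CLA+GW6471. Acads (11409, chr5:115560308-115569355), the short-chain dehydrogenase, was measured at 22.73 FPKM in Vehicle and 38.70 in CLA, against 29.92 in GW6471 and 21.52 in CLA+GW6471. The CLA library was the highest for both, and Vehicle and CLA+GW6471 did not differ beyond counting error in either (log2 ratio of CLA+GW6471 to Vehicle −0.11, interval −0.24 to 0.01, for Acadm, and −0.08, interval −0.22 to 0.06, for Acads).

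**Figure D1:**
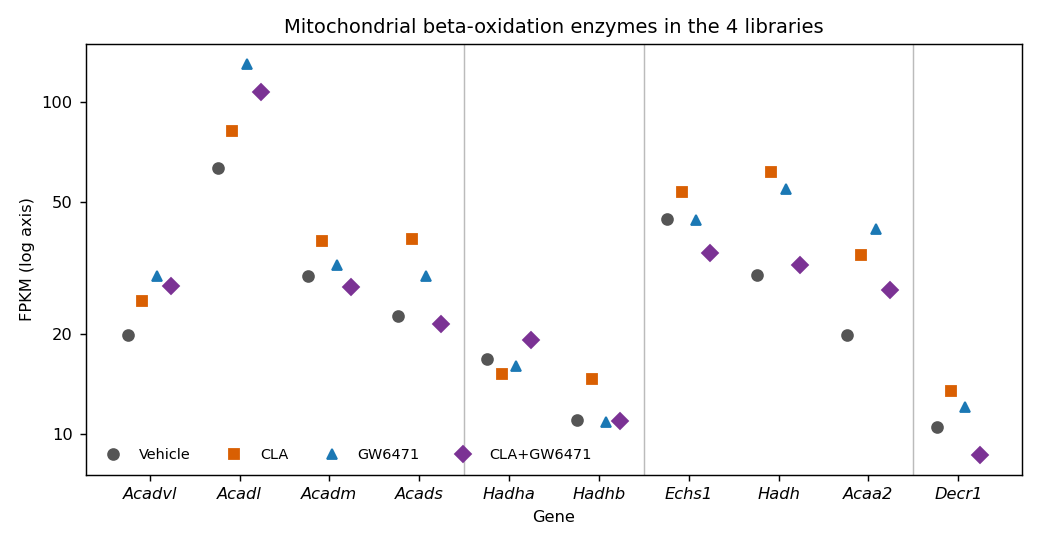
Level of each enzyme in FPKM on a log axis, 1 point per library (circle Vehicle, square CLA, triangle GW6471, diamond CLA+GW6471), with grey lines between the dehydrogenases, the trifunctional protein, the enzymes of shorter chains and Decr1. Acadl lay above the other enzymes in every library, from 63.29 to 130.16 FPKM, and the CLA+GW6471 points of Acads, Hadh and Hadhb lay close to those of Vehicle.

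The mitochondrial trifunctional protein carries the hydratase and dehydrogenase for long chains in its alpha subunit, Hadha, and the thiolase in its beta subunit, Hadhb. Hadha (97212, chr5:30444841-30481702) was measured at 16.90 FPKM in Vehicle and 15.22 in CLA, against 16.01 in GW6471 and 19.27 in CLA+GW6471. Hadhb (231086, chr5:30481788-30511133) was measured at 11.04 FPKM in Vehicle and 14.71 in CLA, against 10.93 in GW6471 and 10.97 in CLA+GW6471. The subunits did not move together: the CLA library was the highest for Hadhb and the lowest for Hadha, though not beyond counting error from GW6471 for Hadha. Among the other libraries, Hadhb did not differ beyond counting error. The ratio of Hadha to Hadhb was 1.53 in Vehicle (interval 1.37 to 1.71), 1.03 in CLA (0.935 to 1.15), 1.46 in GW6471 (1.31 to 1.64) and 1.76 in CLA+GW6471 (1.58 to 1.96). The interval of the CLA library overlapped none of the other three, and it was the only library whose interval included 1. These genes share the start region shown above, and the use of strand in the counting is not stated in the sources used here.

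**Figure D2:**
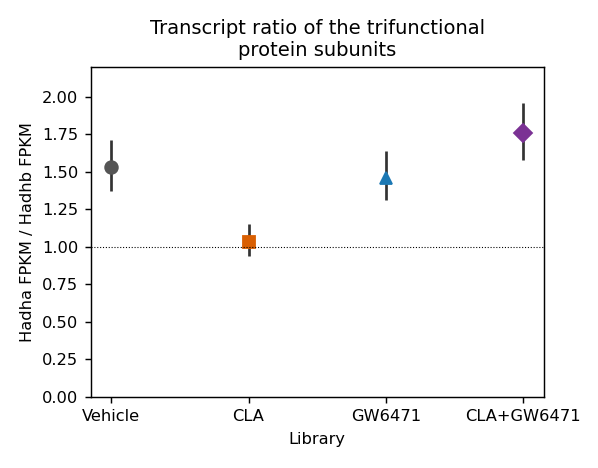
Ratio of Hadha FPKM to Hadhb FPKM in each library, with vertical lines for the 95% counting interval and a dotted line at a ratio of 1. The ratio was 1.03 in CLA and 1.46 to 1.76 in the other libraries.

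The round for shorter chains is completed by a hydratase, a dehydrogenase and a thiolase of the matrix. Echs1 (93747, chr7:147291609-147302375), the short-chain enoyl-CoA hydratase, was measured at 44.50 FPKM in Vehicle and 53.59 in CLA, against 44.20 in GW6471 and 35.11 in CLA+GW6471. Hadh (15107, chr3:130936337-130975019), the hydroxyacyl-CoA dehydrogenase for short and medium chains, was measured at 30.14 FPKM in Vehicle and 61.47 in CLA, against 54.71 in GW6471 and 32.33 in CLA+GW6471. Acaa2 (52538), the thiolase of the matrix, was measured at 19.93 FPKM in Vehicle and 34.59 in CLA, against 41.54 in GW6471 and 27.13 in CLA+GW6471. Hadh and Acaa2 were high in the libraries with either treatment and lower in the one with both, while Echs1 did not differ beyond counting error between Vehicle and GW6471 and was lowest with both. For Hadh the library with both treatments differed from Vehicle by no more than counting error (log2 ratio 0.10, interval −0.02 to 0.23), and for Acaa2 it stayed above Vehicle (0.44, interval 0.29 to 0.60).

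Decr1 (67460, chr4:15844387-15872654), the 2,4-dienoyl-CoA reductase, is needed for polyunsaturated fatty acids, whose double bonds the core enzymes cannot process alone. It was measured at 10.53 FPKM in Vehicle and 13.52 in CLA, against 12.08 in GW6471 and 8.66 in CLA+GW6471. Its lowest level was with both treatments, below Vehicle by more than counting error (log2 ratio −0.28, interval −0.46 to −0.11). It was the least abundant member in every library except GW6471, where Hadhb was.

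In CLA against Vehicle, 9 of the 10 members were higher in CLA and Hadha was lower, and 3 members differed by at least 1.5-fold. These were Hadh (log2 ratio 1.03, interval 0.92 to 1.14), Acaa2 (0.79, 0.64 to 0.95) and Acads (0.77, 0.64 to 0.89). Of all genes tested, 7.30% were higher by at least 1.5-fold, and 4.95% lower, where no member was. The other 6 that were higher had log2 ratios between 0.27 (Echs1) and 0.41 (Hadhb), each with an interval above 0. By the interval, 9 members were higher, against 32.1% of all genes, and 1 was lower, Hadha (−0.15, −0.27 to −0.04), against 33.4%. The median log2 ratio was 0.36 over the members and −0.0071 over all genes. The summed FPKM of the members went from 269.0 in Vehicle to 376.9 in CLA. The hepatocyte markers moved in the same direction, from a summed FPKM of 968 to 1845, and Cd68, a macrophage marker, from 23.43 to 35.64. The summed cholangiocyte markers went from 85.6 to 66.9. Sox9 went from 54.74 to 34.72, Krt7 from 23.47 to 23.14, Epcam from 7.09 to 8.95 and Krt19, with a mean under 1, from 0.28 to 0.06. Their part in the result was not tested.

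GW6471 against Vehicle asks what the antagonist did on the linoleic acid diet. Here Acaa2 (log2 ratio 1.06, interval 0.91 to 1.21), Acadl (1.04, 0.97 to 1.11) and Hadh (0.86, 0.75 to 0.97) were higher by at least 1.5-fold, as were 3.28% of all genes. Acadvl lay just under that limit (0.58, 0.46 to 0.72) and passed it when the libraries were scaled to a common sum or by the median of ratios. No member was lower by at least 1.5-fold, as 2.10% of all genes were. By the interval, 6 members were higher, the above with Acads (0.39, 0.26 to 0.53) and Decr1 (0.20, 0.04 to 0.36), against 27.5% of all genes, and none was lower, against 27.4%. The intervals of Acadm, Hadha, Hadhb and Echs1 included 0. The median log2 ratio was 0.30 over the members and −0.0041 over all genes, and the summed FPKM of the members was 401.9 in GW6471, the highest of the 4 libraries. The summed hepatocyte markers, at 1499 against 968, were also higher, and the part they had was not tested.

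The comparison of CLA+GW6471 with CLA asks what the antagonist did on the CLA diet, and here the members split. Hadh (log2 ratio −0.92, interval −1.03 to −0.82), Acads (−0.84, −0.98 to −0.72), Decr1 (−0.64, −0.81 to −0.47) and Echs1 (−0.61, −0.72 to −0.50) were lower by at least 1.5-fold, as were 9.15% of all genes. No member was higher by that much, against 6.84% of all genes. By the interval, 7 members were lower, the above with Acadm, Hadhb and Acaa2, against 33.7% of all genes. The other 3 were higher, against 34.9% of all genes: Acadl (0.39, 0.32 to 0.45), Hadha (0.34, 0.23 to 0.45) and Acadvl (0.15, 0.03 to 0.27). These 3 act on long chains, as does Hadhb among the 7. The median log2 ratio was −0.44 over the members and 0.01 over all genes. The summed hepatocyte markers went from 1845 to 902, and Cd68 from 35.64 to 24.37. The summed cholangiocyte markers went from 66.9 to 84.5. Sox9 went from 34.72 to 57.05, Krt7 from 23.14 to 18.84, Epcam from 8.95 to 8.47 and Krt19, with a mean under 1, from 0.06 to 0.11. Their part in the result was not tested.

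In CLA+GW6471 against GW6471, which compares the diets under the antagonist, Hadh (log2 ratio −0.76, interval −0.87 to −0.65) and Acaa2 (−0.61, −0.75 to −0.48) were lower by at least 1.5-fold, as were 3.88% of all genes. No member was higher by that much, against 2.81% of all genes. By the interval, 7 members were lower, against 30.3% of all genes, and Hadha was higher (0.27, 0.16 to 0.38), against 28.9%. The intervals of Acadvl (−0.22 to 0.01) and Hadhb (−0.19 to 0.20) included 0. The median log2 ratio was −0.31 over the members and 0.0041 over all genes. The comparisons share libraries, so that a high level in 1 library enters more than 1 of them, and the summed hepatocyte markers, 902 against 1499, were again lower, which was not tested.

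**Figure D3:**
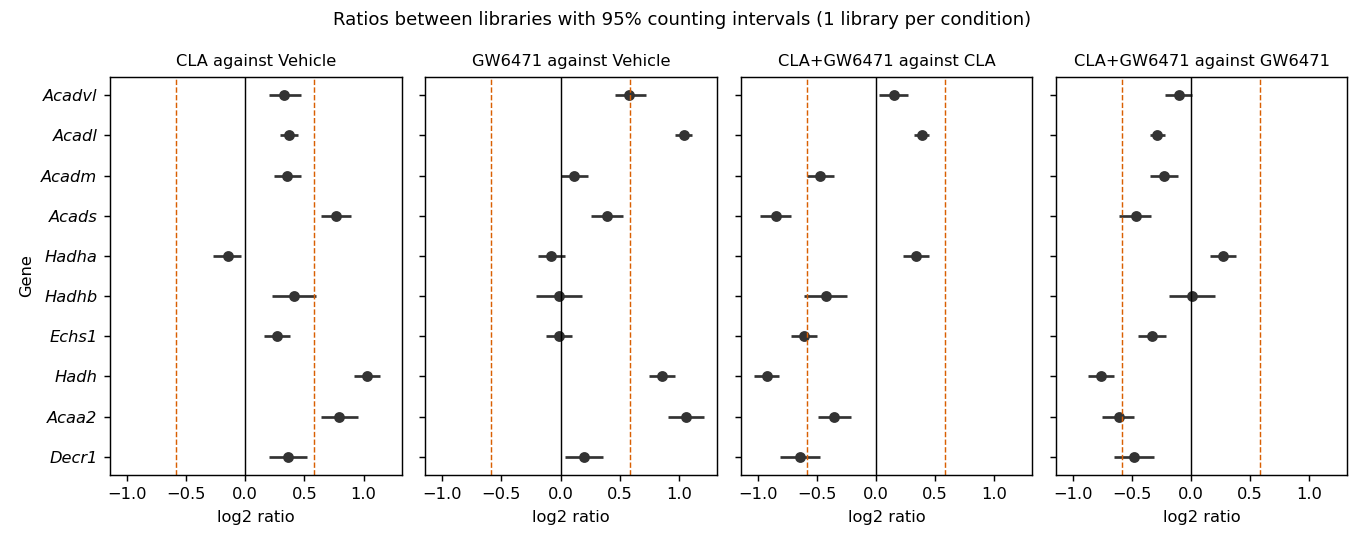
Log2 ratio of each enzyme in the 4 comparisons (points) with its 95% counting interval (lines), a black line at 0 and dashed lines at 1.5-fold. In CLA against Vehicle 9 points lay to the right of 0, and in CLA+GW6471 against CLA 7 lay to the left, with Acadvl, Acadl and Hadha to the right.

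The genes next to these enzymes in the pathway were described in the same way. The electrons from the dehydrogenases pass to the electron transfer flavoprotein (Etfa, Etfb) and its oxidoreductase Etfdh. Etfa was at 22.47, 30.72, 30.64 and 25.72 FPKM in Vehicle, CLA, GW6471 and CLA+GW6471, in that order here and in the sentences that follow. Etfb was at 40.55, 42.25, 50.24 and 57.14 FPKM. Etfdh was at 17.42, 21.79, 26.53 and 25.84 FPKM. Like Acadl, Acadvl, Hadh and Acaa2, all 3 were lowest in Vehicle. Etfdh was higher by at least 1.5-fold in GW6471 than in Vehicle (log2 ratio 0.60), as were 3.28% of all genes. It was the only such difference in the list. The list's median log2 ratio was 0.32 in CLA and 0.45 in GW6471, each against Vehicle. In CLA+GW6471 it was 0.24 against CLA, where that of the members was −0.44, and −0.04 against GW6471. Against CLA 2 of the 3 were higher, beside 50.9% of all genes.

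Of 9 isomerases and enzymes of the pathway's ends, all were higher in CLA than in Vehicle, as 48.9% of all genes were, and 3 of them by at least 1.5-fold, against 7.30% of all genes. Eci1 and Pcca were higher by a log2 ratio of only 0.02. Ech1, which moves double bonds of dienoyl-CoA, was at 21.70, 39.09, 27.38 and 17.73 FPKM, and Eci2, an enoyl-CoA isomerase, at 27.69, 46.84, 49.81 and 33.96. Pccb, a subunit of propionyl-CoA carboxylase, was at 1.22, 2.07, 1.84 and 1.09 FPKM. Like Decr1, Ech1 was highest in CLA and lowest with both treatments, with a log2 ratio of −1.14 in CLA+GW6471 against CLA. In that comparison 8 of the 9 were lower, against 49.0% of all genes, 2 of them by at least 1.5-fold, against 9.15%, and the median was −0.44, beside −0.44 for the members.

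Of 8 other mitochondrial acyl-CoA dehydrogenases, several of which serve the breakdown of amino acids, 7 passed the filter. In CLA against Vehicle 6 of these were higher, by log2 ratios from 0.07 to 0.50, against 48.9% of all genes. The median log2 ratio of the list was 0.41 beside 0.36 for the members. In GW6471 against Vehicle 3 were higher and 3 lower, against 49.2% and 50.6% of all genes, with a median of 0.00. None was higher than Vehicle by at least 1.5-fold in CLA (7.30% of all genes) or in GW6471 (3.28%). None was lower by that much in CLA (4.95% of all genes) or in GW6471 (2.10%). All 7 were lower in CLA+GW6471 than in CLA, against 49.0% of all genes, 3 of them with log2 ratios of only −0.08 to −0.07. Ivd (log2 ratio −0.84) and Gcdh (−0.61) were past 1.5-fold, against 9.15% of all genes, and the median was −0.15. Acad12 had a mean FPKM under 1.

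The carnitine shuttle brings long-chain fatty acids into the matrix, before the members act. Cpt1a, its rate-limiting enzyme and a known target of PPARα, was at 11.34 FPKM in Vehicle and 15.98 in CLA, against 46.04 in GW6471 and 43.13 in CLA+GW6471. Slc25a20, the carnitine carrier, was at 4.12, 6.61, 9.83 and 8.34 FPKM. Both were higher in the libraries labelled GW6471 than in the others, as Acadl was. For Cpt1a the log2 ratio of GW6471 to Vehicle was 2.01, and that of CLA+GW6471 to CLA was 1.43. Ppara itself was at 0.15, 0.11, 0.06 and 0.07 FPKM, below the filter on low values. Cpt2, which hands the acyl groups back to CoA, was at 10.52, 15.09, 13.86 and 12.87 FPKM, highest in CLA. Over the 6 genes of the shuttle the median log2 ratio was 0.33 in CLA and 0.26 in GW6471, each against Vehicle, 0.26 in CLA+GW6471 against CLA and −0.06 against GW6471. Only the labels assign the 2 libraries with GW6471 to their conditions.

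Peroxisomes shorten very long chains before mitochondria take them over. Of 14 genes of this pathway, 11 passed the filter, and all 11 were higher in CLA than in Vehicle (48.9% of all genes), 5 by at least 1.5-fold (7.30%), with a median log2 ratio of 0.56. In CLA+GW6471 against CLA, 10 of 11 were lower (49.0% of all genes), 6 by at least 1.5-fold (9.15%), with a median of −0.70. Abcd2, a transporter of very long-chain acyl-CoA, was at 1.53, 8.61, 4.81 and 1.44 FPKM, and Amacr, Crot and Acaa1a had log2 ratios of −0.93, −0.84 and −0.78 in CLA+GW6471 against CLA. The medians of the members in the same comparisons were 0.36 and −0.44.

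Of 17 genes of the tricarboxylic acid cycle, which burns the acetyl-CoA released, only Sucla2 differed by at least 1.5-fold. It did so in CLA+GW6471 against CLA (log2 ratio −0.68), where 9.15% of all genes were lower by that much. Over the 4 comparisons, 2.10% to 9.15% of all genes passed this limit in each direction. The medians of the cycle's list lay between −0.09 and 0.09 in the 4 comparisons. The medians of 10 mitochondrial housekeeping genes lay between −0.14 and 0.00. In CLA against Vehicle 3 of them were higher and 7 lower, beside 48.9% and 50.9% of all genes. Mitochondrial content was not measured. Only Vdac1 of this list, a channel of the outer membrane, passed 1.5-fold (−0.73 in CLA+GW6471 against CLA, where 9.15% of all genes were lower by that much). Vdac1 was at 107.78, 154.82, 133.99 and 93.49 FPKM, the order of Acadm, Acads and Decr1. Of 9 regulators of the pathway, 7 passed the filter, and of these only Lpin1, a phosphatidate phosphatase and coactivator of PPARα, passed 1.5-fold, at 6.48, 11.60, 9.51 and 6.03 FPKM. It was higher in CLA than in Vehicle (log2 ratio 0.83), as were 7.30% of all genes by at least 1.5-fold. In CLA+GW6471 it was lower against CLA (−0.93, 9.15% of all genes) and against GW6471 (−0.65, 3.88%). No test of the differences between these lists was made, since each has 1 library per condition.

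**Figure D4:**
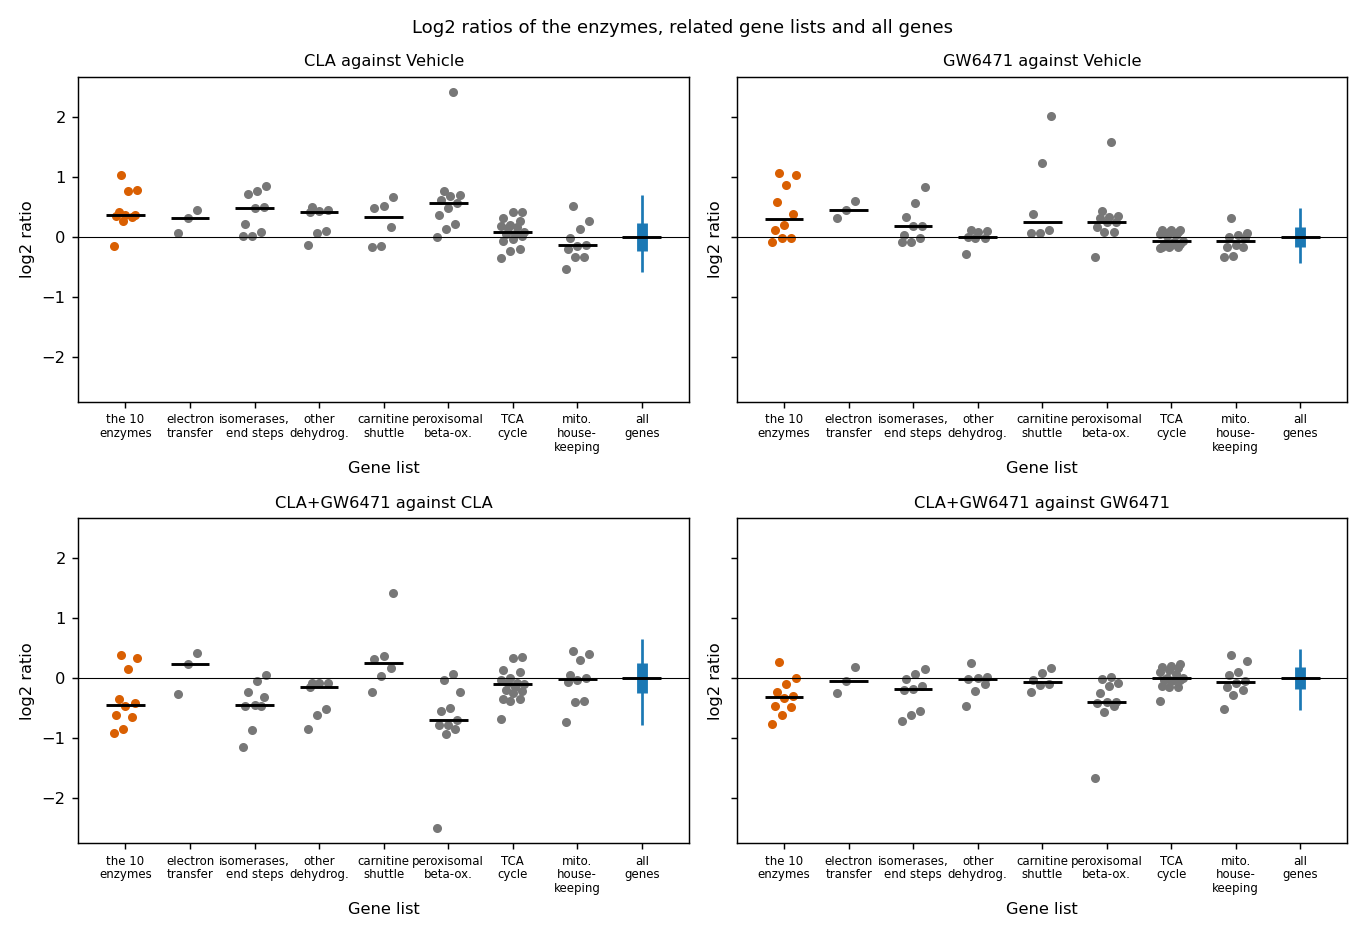
Log2 ratios of single genes that averaged 1 FPKM or more (points) in the 4 comparisons for the 10 enzymes (orange) and 7 related lists (grey), with black bars for medians, and for all genes the range from the 5th to the 95th percentile (thin blue line) and the quartiles (thick). The medians of the enzymes were 0.36, 0.30, −0.44 and −0.31, and those of the tricarboxylic acid cycle lay between −0.09 and 0.09.

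The median profile of the members, each centred on its own mean over the libraries, was −0.18 in Vehicle and 0.28 in CLA, against 0.13 in GW6471 and −0.17 in CLA+GW6471 on the log2 scale. By Euclidean distance over the 4 libraries, the nearest of 8172 other genes that averaged 5 FPKM or more were Lgmn (0.030), Hagh (0.041), Slc39a4 (0.041), Pias3 (0.043) and Slc38a10 (0.043). Lgmn was at 52.79, 72.55, 65.26 and 52.76 FPKM. The members themselves were spread around this profile, from 0.14 for Acadm to 0.78 for Acadl, and 387 other genes were nearer to it than Acadm. With 4 libraries such a likeness is a description, and the profile was shared by many genes outside the pathway.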

How the data were processed

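Liver RNA of mice was sequenced in 1 library per condition, 4 in all, and the labels gave the condition of each. Per the methods and labels, reads were mapped to mm9 with BWA and Bowtie and quantified with Cufflinks, with no versions or settings stated in the sources used here. The values are FPKM, deposited by the authors to 2 decimals with a column for each library. The table names no unit, which was taken from the paper's supplement. A normalization to mapped fragments makes each FPKM depend on the most abundant genes, such as Sprr1a.

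Values were used as deposited. Log2 ratios had 0.1 added to each FPKM, which understates changes of low genes. Counts over all genes required an average of 1 FPKM and a difference of 1.5-fold. No count model could be fitted. Reads per library were estimated from the step between low values of 499 short genes with 1 transcript (under 1000 nt), and reads per gene from the longest coding transcript in GENCODE vM1. Counting intervals (95%, exact Clopper-Pearson) rest on these estimates and were available for 9762 of the 10355 genes. Scripts were tested on simulated data (Python 3.11.15, numpy 2.4.6, pandas 2.3.3, scipy 1.17.1, matplotlib 3.10.9).

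The members and gene lists were chosen with earlier results of these data known. Named were all members, the electron transfer genes, and in each other list up to 4 genes past 1.5-fold by largest log2 ratio. Cpt2, Ppara, Acad12, Eci1 and Pcca fall outside this rule and were named after their values were seen. For the GC box and the Echs1 sequence the choice came after the sequences were seen. Protein sequences were not analysed here. Alternatives were other pseudocounts, filters, scalings and fold sizes, and intervals from 50% of the estimated reads.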

Additional observations from a re-analysis of the deposited data

Results flagged for a closer look

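For Hadh the log2 ratio of CLA to its control was 1.03 without GW6471 and −0.76 with it, a difference of −1.78. The same 4 values give the same difference for GW6471, whose log2 ratio was 0.86 on the linoleic acid diet and −0.92 on the CLA diet (difference −1.78). For Acaa2 the log2 ratio of CLA was 0.79 without GW6471 and −0.61 with it, a difference of −1.41. These were noted because the library moved one way in the first setting and the opposite way in the second, by at least 1.5-fold each time. With 1 library in each condition the difference was not tested in any of them.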

How the results depend on the processing

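No paired analysis was possible because each condition has 1 library, and for the same reason no replicate could be left out. The 4 median log2 ratios of the members moved little in all 16 alternatives of pseudocount and scaling, and the counts of members past 1.5-fold were equal in 22 of 24 alternatives of these kinds. In the other 2, both scalings, 4 members in place of 3 were higher in GW6471 against Vehicle, with Acadvl added. The size of the fold mattered more. At a smaller fold, a log2 ratio of 0.32, 8 members (18.4% of all genes) were higher in CLA against Vehicle and 5 (10.9%) in GW6471 against Vehicle, 2 (20.1%) were higher and 7 (20.4%) lower in CLA+GW6471 against CLA, and 5 (13.4%) were lower in CLA+GW6471 against GW6471. At 2-fold, 1 member (1.79% of all genes) was higher in CLA against Vehicle and 2 (0.560%) in GW6471 against Vehicle, and 0 were lower in CLA+GW6471 against CLA (2.67%) and 0 in CLA+GW6471 against GW6471 (0.802%). With 50% of the estimated reads, an alternative chosen after seeing the data, 0 members were lower beyond the interval in CLA against Vehicle, as the interval of Hadha then included 0. The same held for Decr1 in GW6471 against Vehicle and for Acadvl in CLA+GW6471 against CLA. Counts over all genes moved by over 1.5 times in 20 of 40 alternatives and reversed in none. In CLA against Vehicle, 756 genes were higher by at least 1.5-fold, against 448 among genes averaging 5 FPKM or more and 1373 with no filter, and 513 were lower, against 323, 1031 and, with a pseudocount of 1, 332. In GW6471 against Vehicle, 340 were higher (170, 806 and 201 in the same order) and 217 lower (97, 748 and 106). In CLA+GW6471 against CLA, 708 were higher (1264 with no filter) and 948 lower (596 with a mean of at least 5, 1632 with no filter). In CLA+GW6471 against GW6471, 291 were higher (153, 840 and 174) and 402 lower (205, 889 and 253). The depth limits genes under 1 FPKM, Ppara among them.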
